A study of Rattus norvegicus with 18 samples.

Results

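Myh6 and Myh7 encode the alpha and beta cardiac myosin heavy chains, the motor proteins of the thick filament of heart muscle. They were described across all 18 heart libraries of a rat study of doxorubicin and AICAR. The members were taken by gene identifier, ENSRNOG00000025757 for Myh6 and ENSRNOG00000016983 for Myh7, and are 2 of the 32545 rows of the deposited table. The Myh7 share, 100 times Myh7 divided by the sum of both, was computed in each library. No gene names stand in that table, so both names rest on these identifiers.

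Each cardiac myosin molecule holds a pair of heavy chains. The alpha chain hydrolyses ATP faster and shortens muscle faster, and the beta chain is slower and uses less energy per unit of force. In rats the alpha chain prevails in the adult ventricle and the beta chain before birth, and thyroid hormone favours the first over the second. A move from alpha to beta in the stressed or failing rodent heart is part of what is called the fetal gene programme.

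The animals were male Wistar rats, an outbred laboratory strain, of about 250 g at the start, and each library is 1 animal. The saline group (6 rats) received 5 weekly intravenous injections of saline. The DOX+saline group (6 rats) received 5 weekly intravenous injections of doxorubicin at 3 mg/kg per week and saline under the skin. Doxorubicin is an anthracycline cancer drug that injures heart muscle. The DOX+AICAR group (6 rats) received the same doxorubicin and AICAR at 0.5 g/kg under the skin. AICAR is a nucleoside that cells convert to an AMP mimic, an activator of the kinase AMPK. No AICAR group without doxorubicin was analysed here. The chamber of the heart that was sampled is not given in the sources used here, nor is the time from the last injection. Saline rats are numbered 51 to 56 and the others 1 to 12, so doxorubicin and a difference between these number series cannot be told apart.

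In rats both genes lie next to each other on chromosome 15, and each carries a microRNA of the miR-208 family, in RefSeq's GRCr8 annotation. The mature 3p forms are shown because they set the members apart as transcription units: each is made from its host gene's own transcript. Bases 2 to 8, the seed by which a microRNA pairs with its targets, are in capitals. Polyadenylated RNA was sequenced, so the mature microRNAs were not measured.
rno-miR-208a-3p, in Myh6 (GRCr8, chr15:32395568-32395585, minus strand): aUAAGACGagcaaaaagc
rno-miR-208b-3p, in Myh7 (GRCr8, chr15:32421648-32421665, minus strand): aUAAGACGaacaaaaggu
The seed is the same in both, UAAGACG, and the 18 listed bases differ at 3 positions, all outside it.

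Values are TPM, which correct each gene's reads for its length and add up to 1000000 in every library. TPM can therefore be compared between the genes as well as between animals, and a change is a change of share in the library. A comparison of Myh6 with Myh7 also depends on how reads that match both were counted, which is not given in the sources used here. Libraries held 20.57 to 31.32 M recovered reads, where M is 1000000 (20.57 to 31.32 in saline, 24.9 to 29.93 in DOX+saline, 25.06 to 30.81 in DOX+AICAR). Tests across genes used limma on log2(TPM + 1) for 14732 genes that reached 1 TPM in 6 or more libraries, both members among them. A call means a Benjamini-Hochberg adjusted p over these genes of less than 0.05. DOX+saline animals 1 and 6 were the most alike pair. Their median chi-square per gene was 0.605, where sampling noise alone gives 0.455 and the other pairs within groups began at 1.23. Their labels give them separate animal numbers, and they were counted as 2 animals. Whether they came from separate RNA was not tested. With both averaged to 1 library, the changes after doxorubicin were -0.55 for Myh6 and 1.36 for Myh7 on the log2 scale (limma adjusted p = 3.68e-06 and 9.80e-06), and 26.2 percentage points for the Myh7 share described below (exact permutation adjusted p = 0.00325). The shares of these groups do not overlap, so the permutation p could only be at or near its smallest value and is no check on this pair.

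In the saline heart Myh6 was among the most abundant transcripts and Myh7 was well below it. Myh6 ranged from 5230 to 6308 TPM with a median of 5593 TPM in the 6 saline rats, and it ranked 12th to 14th of all genes in each library. Myh7 ranged from 706 to 1559 TPM with a median of 1236 TPM, and its rank lay between 64 and 205. Myh6 was 3.65 to 8.93 times as abundant as Myh7, per length. Animals 51 and 56 had the highest Myh6, and animal 56 also had the lowest Myh7.

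What doxorubicin did to the pair was addressed by DOX+saline against saline. Myh6, the fast chain, fell to 0.673 times its saline level, and Myh7, the slow chain, rose 2.47-fold. The mean Myh7 share of their sum went from 17.6% to 43.3%.

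Myh6 ranged from 3475 to 4429 TPM with a median of 3801 TPM in DOX+saline. Its highest value there lay below the lowest saline value of 5230 TPM, so the groups did not overlap, as was the case for 11.2% of all genes in this direction. The mean was 5709 ± 433 TPM in saline against 3841 ± 325 TPM after doxorubicin (SD, n = 6). The log2 change was -0.57 with an SE of 0.06 (95% interval -0.71 to -0.44, limma adjusted p = 9.12e-07). In this comparison 58% of all genes were called, and 20% were called lower, so the call by itself does not set Myh6 apart. Its rank moved to 16th to 18th.

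Myh7 ranged from 2327 to 3480.5 TPM with a median of 2934 TPM in DOX+saline. The lowest of these values, that of animal 1, lay above the highest saline value of 1559 TPM, a separation that 21.1% of all genes showed in this direction. The mean was 1220 ± 307 TPM in saline against 2957 ± 444 TPM after doxorubicin (SD, n = 6). The log2 change was 1.31 with an SE of 0.17 (95% interval 0.95 to 1.66, limma adjusted p = 5.05e-06). Here 38% of genes were called higher, and 6.68% were called at least 2-fold higher. Myh7 now ranked 21st to 30th.

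**Figure D1:**
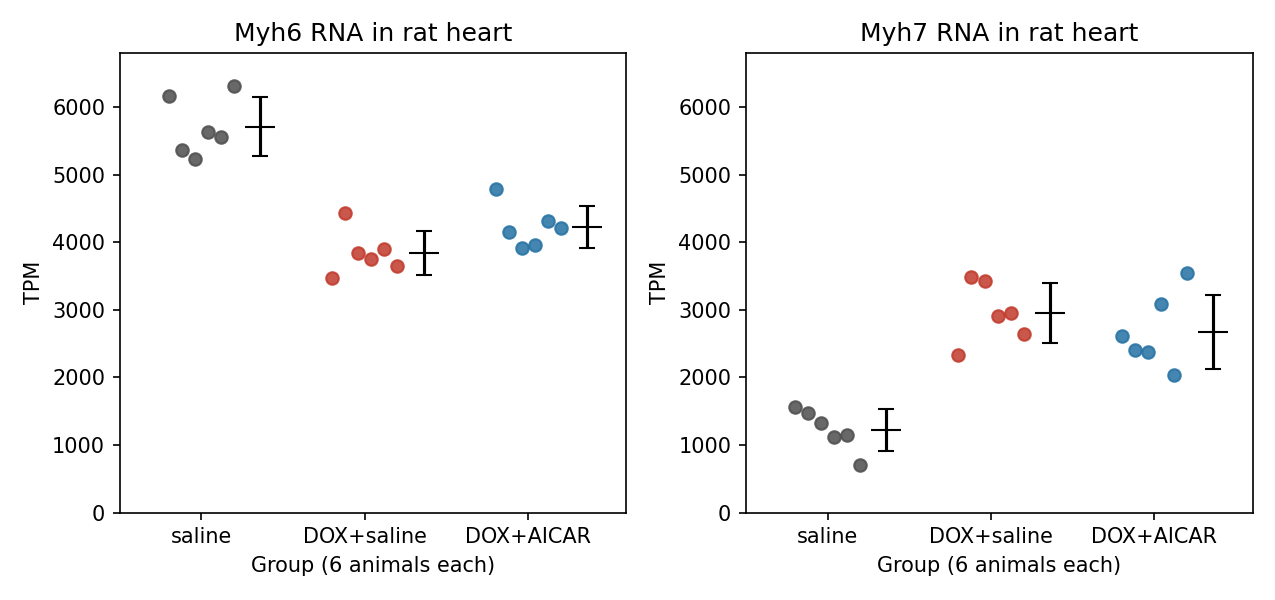
TPM of Myh6 (left) and Myh7 (right) in each heart library. Points are animals, 6 per group, in order of animal number; the bar beside them is the mean with 1 SD. Saline animals do not overlap either doxorubicin group for either gene, while DOX+saline and DOX+AICAR overlap for both.

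Among abundant transcripts both members were near the extremes. A band of 105 genes had a mean of at least 1000 TPM over the 18 libraries, a limit chosen after the data were seen. The median log2 change of these genes after doxorubicin was -0.27, against 0.10 over all 14732 genes. In the band 67 genes were called lower and 21 higher. The change of Myh6 was lower than that of 99 of them, with 5 lower still. The change of Myh7 was higher than that of 98, with 6 higher still. Over all genes tested, 631 had a lower log2 change than Myh6 and 570 a higher one than Myh7. The direction of both members was the same with median-of-ratios factors (-0.69 for Myh6 and 1.19 for Myh7) and with quantile normalization (-0.45 and 1.36). Those scalings moved the median of all genes from 0.10 to -0.005 and -0.06.

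**Figure D2:**
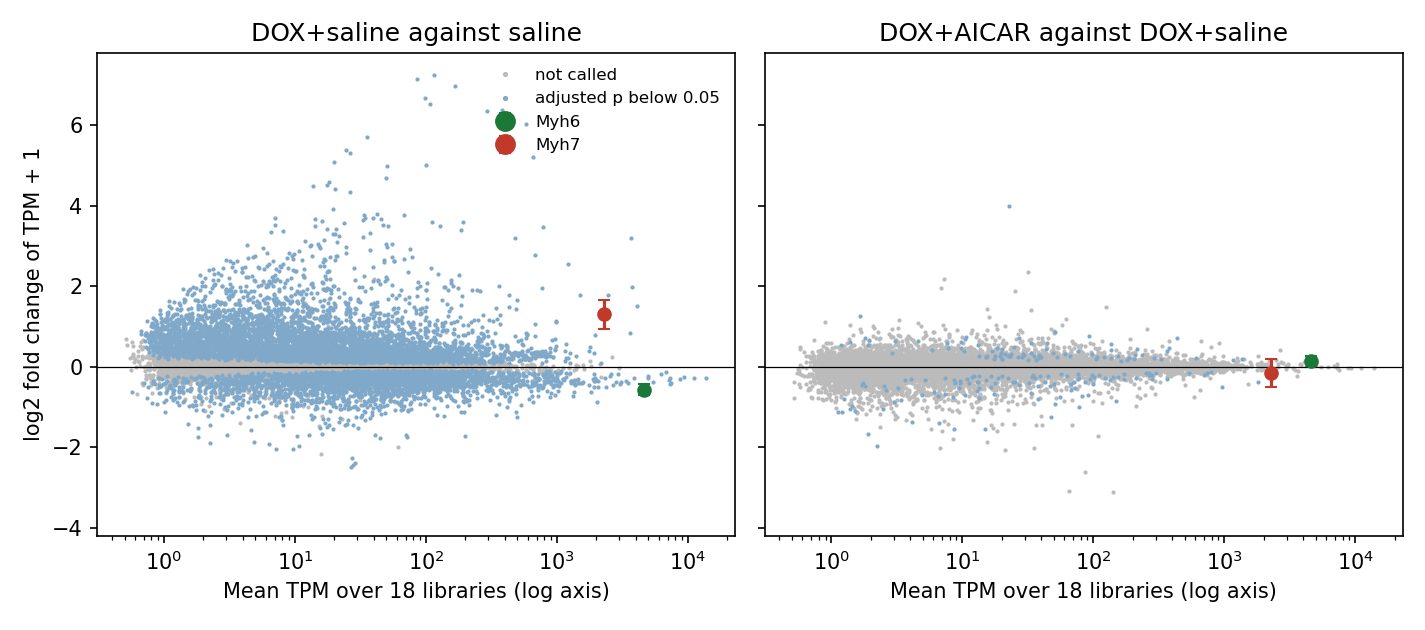
Log2 fold change of TPM + 1 against mean TPM (log axis) for the 14732 genes tested, for doxorubicin (left) and for AICAR added to it (right). Large points are Myh6 and Myh7 with their 95% intervals, and small blue points are genes with an adjusted p below 0.05. Myh6 at -0.57 and Myh7 at 1.31 stand on opposite sides of 0 on the left, and both lie near 0 on the right.

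In TPM as deposited, the amounts gained and lost were close in size. The size of each change depended on the scaling. Log2 changes of Myh6 and Myh7 were -0.69 and 1.19 with median-of-ratios factors, and -0.45 and 1.36 with quantile normalization. The sum was not computed with those scalings, so a balance of gain and loss is described for TPM only. The mean of Myh6 fell by 1868 TPM and that of Myh7 rose by 1737 TPM, so that the sum differed by -131 TPM. The sum averaged 6929 ± 416 TPM in saline rats, 6798 ± 738 TPM after doxorubicin alone and 6901 ± 597 TPM with AICAR (SD, n = 6). DOX+saline rats spanned 5801 to 7909 TPM and saline rats 6557 to 7720 TPM, so the difference in the sum was smaller than the spread between animals. In heart tissue a changed proportion of muscle cells and a changed amount of RNA per muscle cell cannot be told apart from TPM alone. This applies to the fall of Myh6 and to the rise of Myh7, and it was not tested.

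The Myh7 share ranged from 10.1% to 21.5% with a median of 18.6% in saline. In DOX+saline it ranged from 40.1% (animal 1) to 47.1% (animal 3) with a median of 43.4%. All 6 DOX+saline rats lay above all 6 saline rats, and no rat reached 50%. The mean share was 17.6 ± 4.18% in saline against 43.3 ± 2.31% after doxorubicin (SD, n = 6). The difference was 25.7 percentage points (95% interval 21.8 to 30.2 from the same test, two-sided exact permutation p = 0.00216, the smallest that 924 assignments can give, adjusted p = 0.00325 over 3 comparisons). On the ratio scale Myh7 over Myh6 was 3.68 times higher, a log2 difference of 1.88.

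Counting error was small beside the spread between animals. Myh6 had 278045 to 509810 recovered reads per library and Myh7 44150 to 287572, at gene lengths of 6028 and 5923 bp. The 95% Wilson interval of the Myh7 share of reads was 0.175 to 0.280 percentage points wide, which covers counting error only. For DOX+saline animal 1 the interval was 39.6% to 39.8% and for animal 6 it was 41.5% to 41.8%. Saline animal 56, which had the lowest share, also had the fewest reads in all, 20.57 M. Without it, the difference between DOX+saline and saline was 24.2 points (exact permutation adjusted p = 0.00325, at or near the smallest possible for groups that do not overlap). The coding sequences of both genes are much alike, and how reads that match both were counted is not given in the sources used here.

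**Figure D3:**
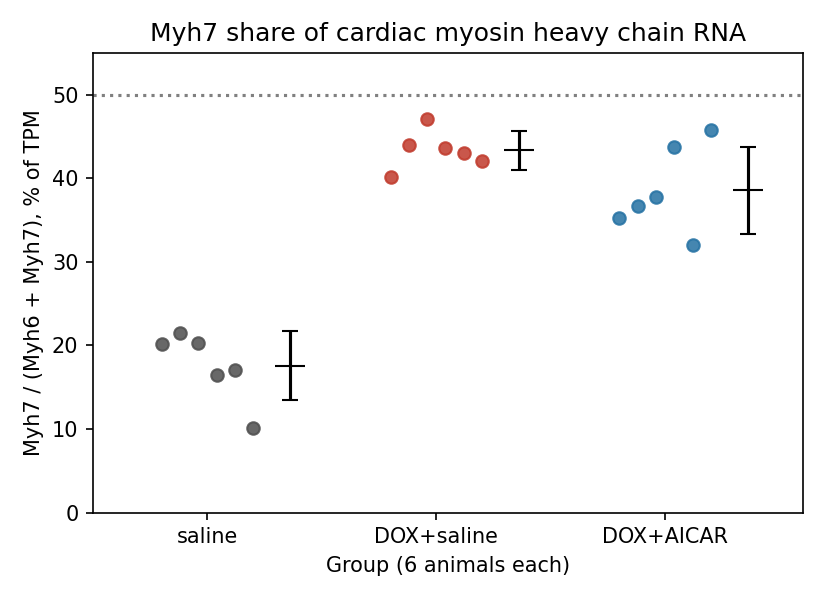
Myh7 share of Myh6 plus Myh7, in percent of TPM, per animal and group; the bar is the mean with 1 SD (n = 6) and the dotted line marks 50%. Saline rats sit between 10.1% and 21.5%, DOX+saline between 40.1% and 47.1%, and DOX+AICAR between 32.0% and 45.7%.

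The effect of adding AICAR was read from DOX+AICAR against DOX+saline. Neither chain was called different. Myh6 was slightly higher and Myh7 slightly lower on average, and the share of 4 of the 6 AICAR rats lay below that of every DOX+saline rat.

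Myh6 ranged from 3914 to 4789 TPM with a median of 4180 TPM in DOX+AICAR. Animal 7 alone exceeded the highest DOX+saline rat (4429 TPM), and the groups overlapped. The mean was 4224 ± 316 TPM against 3841 ± 325 TPM (SD, n = 6). The log2 difference was 0.14 with an SE of 0.06 (limma adjusted p = 0.266). The 95% interval of the fold, not adjusted for the number of genes, was 1.003 to 1.21. Of all genes, 1.33% (196) were called in this comparison, a count that was not stable: it was 36 without DOX+AICAR animal 10, 461 without DOX+saline animal 2, 16 with only the 12 libraries compared and 1058 with array weights.

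Myh7 ranged from 2036 to 3546 TPM with a median of 2511 TPM in DOX+AICAR. Animal 12 had the highest Myh7 of all 18 rats, and animal 11 the lowest of those given doxorubicin. The mean was 2677 ± 547 TPM against 2957 ± 444 TPM (SD, n = 6), a log2 difference of -0.15 (SE 0.17, limma adjusted p = 0.682). The 95% interval of the fold was 0.702 to 1.15, so falls and small rises are both within it.

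The Myh7 share in DOX+AICAR ranged from 32.0% (animal 11) to 45.7% (animal 12) with a median of 37.2%. Animals 10 and 12, at 43.8% and 45.7%, lay among the DOX+saline rats, and animals 7, 8, 9 and 11 lay below all of them. The mean was 38.6 ± 5.21% against 43.3 ± 2.31% (SD, n = 6). The difference of -4.79 percentage points did not pass the threshold (95% interval -9.92 to 0.35, two-sided exact permutation p = 0.0693, adjusted p = 0.0693). This call rested on single animals: without DOX+AICAR animal 12 the difference was -6.23 points (adjusted p = 0.0216) and without animal 10 it was -5.83 points (adjusted p = 0.0368, exact permutation tests). Leaving out any other 1 animal gave adjusted p from 0.0563 to 0.136. With DOX+saline animals 1 and 6 averaged to 1 library the difference was -5.24 points (exact permutation adjusted p = 0.0649).

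Rats given both drugs were also compared with saline rats. In DOX+AICAR Myh6 was lower, at -0.43 on the log2 scale (SE 0.06, limma adjusted p = 2.16e-05). Myh7 was higher, by 1.15 on the log2 scale (SE 0.17, limma adjusted p = 2.36e-05). In this comparison 53.3% of genes were called, 18.4% lower, 34.8% higher and 6.18% at least 2-fold higher. Neither gene's groups overlapped, which held for 11.6% of genes on the lower side and 22.9% on the higher side. The share differed by 21.0 percentage points (95% interval 15.1 to 27.0, two-sided exact permutation p = 0.00216, adjusted p = 0.00325). This comparison and the first share the saline rats. The order of the groups by mean share was saline, DOX+AICAR and DOX+saline, and the last pair did not differ past the threshold.

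**Figure D4:**
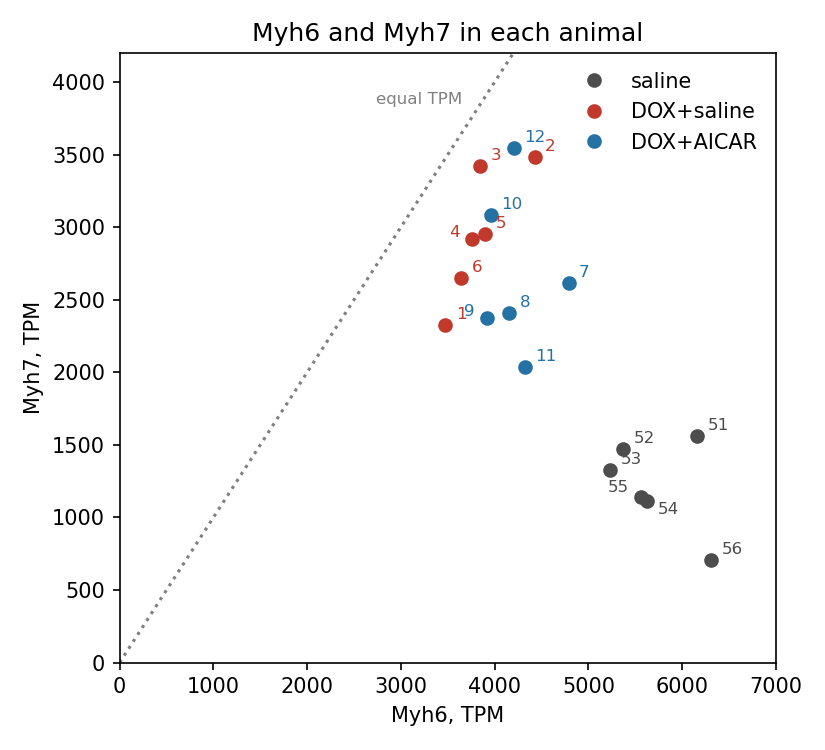
Myh7 TPM against Myh6 TPM for each of the 18 animals, labelled by animal number and coloured by group; on the dotted line both genes are equal. Saline animals lie at high Myh6 and low Myh7, and all animals lie to the right of the line, the nearest being DOX+saline animal 3 with a share of 47.1%.

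Within groups no relation between the members passed the test after adjustment. Over the 6 DOX+saline rats they ran in the same direction (Pearson r = 0.838, exact permutation p = 0.0236, adjusted p = 0.142; Spearman rho = 0.943, exact permutation p = 0.0167, adjusted p = 0.1). Animals 2 and 3 were high in Myh7 and animals 1 and 6 were low in both genes. The test counts animals 1 and 6, the most alike pair, as separate rats, which can raise r. Without the 2 rats farthest from the median Myh6, animals 1 and 2, r was 0.665, with animal 6 still included. In saline r was -0.408 (exact permutation p = 0.408, adjusted p = 0.646) with rho -0.371 (exact permutation p = 0.497, adjusted p = 0.994), and -0.775 without the 2 farthest rats. In DOX+AICAR r was -0.123 (exact permutation p = 0.821, adjusted p = 0.929) with rho 0.0286 (exact permutation p = 1, adjusted p = 1), and -0.467 without the 2 farthest. None of the 6 within-group relations computed passed after adjustment, at n = 6 each.

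Within each group, rats that were further along the general doxorubicin response did not have a detectably higher Myh7 share. The position of each library was taken along the line from the saline mean (near 0) to the DOX+saline mean (near 1), over all tested genes except the members, with the library itself left out of the line. DOX+saline animals 1 and 6 lay furthest, at 1.22 and 1.20, and animal 1 had the lowest share of its group, 40.1%. These 2 were the most alike pair, and the line for each still held the other, which can raise its position. The relations within DOX+saline count them as 2 separate rats. Animal 2 lay lowest, at 0.634, with a share of 44.0%. Within DOX+saline r was -0.426 (exact permutation p = 0.394, adjusted p = 0.646) with rho -0.6 (exact permutation p = 0.242, adjusted p = 0.725), and r was -0.102 without the 2 farthest rats. Within DOX+AICAR r was -0.422 (exact permutation p = 0.431, adjusted p = 0.646) with rho -0.0857 (exact permutation p = 0.919, adjusted p = 1), and -0.281 without the 2 farthest. Within saline r was -0.0467 (exact permutation p = 0.929, adjusted p = 0.929) with rho -0.143 (exact permutation p = 0.803, adjusted p = 1), and -0.0394 without the 2 farthest.

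The genes most like each member were sought by Pearson correlation of log2(TPM + 1) over the 18 libraries, among 11172 genes with a mean of at least 5 TPM. These values are a description, and they include the difference between saline rats and rats given doxorubicin. Myh6 had 273 genes at r of 0.9 or more and 610 at -0.9 or less. Myh7 had 17 and 0. More genes thus passed these limits for Myh6 than for Myh7. The lowest r for Myh7 was -0.899, just short of the limit. Relative to its mean, Myh7 also varied more between rats than Myh6 in each group. In saline the SD was 25.2% of the mean for Myh7 and 7.58% for Myh6. Such scatter can lower r, and its part in the counts was not tested. The counts therefore do not show which member's pattern more genes shared.

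The gene most like Myh6 was ENSRNOG00000001285 (r = 0.978 over 18 libraries, 0.855 after group means were subtracted). Its levels were 3198 ± 212 TPM in saline rats, 2347 ± 179 TPM after doxorubicin and 2547 ± 103 TPM with AICAR added (SD, n = 6). The next was ENSRNOG00000017032 (r = 0.975, and 0.853 after group means were subtracted), at 3576 ± 154, 2752 ± 180 and 2884 ± 167 TPM in the same order. Both were themselves abundant. Both were lower in every rat given doxorubicin than in any saline rat, which follows largely from choosing them for their likeness to Myh6.

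The gene most like Myh7 was ENSRNOG00000011518 (r = 0.943, and 0.674 after group means were subtracted), at 6.30 ± 1.13 TPM in saline rats, 18.8 ± 2.12 TPM after doxorubicin and 15.8 ± 2.73 TPM with AICAR added (SD, n = 6). The next was ENSRNOG00000059500 (r = 0.939, and 0.679), at 6.17 ± 0.505, 14.3 ± 1.04 and 12.6 ± 1.38 TPM. Both were scarce beside Myh7 itself. No name is attached to any of these 4 identifiers.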

How the data were processed

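Heart RNA of 18 rats in 3 groups of 6 was used. Per the labels' protocols, polyadenylated RNA was made into stranded paired-end libraries. Per the submitters' processing notes, bcl2fastq 2.17.1.14, HISAT2 and featureCounts (Subread 1.5.0) were used with build Rnor_6.0; not given in the sources used here are the annotation release, the strand setting and the treatment of multiply mapped reads. The authors deposited TPM values, which sum to 1000000 per library.

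Genes that reached 1 TPM in 6 or more libraries were fitted with limma 3.58.1 (R 4.3.3) on log2(TPM + 1), 1 mean per group over all 18 libraries, with a mean-variance trend, two-sided, Benjamini-Hochberg adjusted. The Myh7 share was compared with two-sided exact permutation tests (numpy 2.4.6), and the interval holds the shifts that test did not refuse at 0.05. Whole reads were recovered from the TPM steps, within 0.001 reads for all 20828 genes above 0 in at least 6 libraries. On simulated reads 99.98% of 19960 genes came back exactly. limma was tested on simulated data of 12186 genes for the doxorubicin comparison (DOX+saline with saline). Of 50 genes simulated with a 1.5-fold change it found 62%, and of 50 with a 2-fold change 100%. It called 7 genes that had not been changed. The simulation gave every gene the same dispersion, 0.03, made the libraries independent and changed only a small part of the genes. In the real comparison 58% of genes were called, so the rates found on simulated data need not hold there.

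The members and lists were chosen with earlier results of these data known. Named genes were the members and, per member, the 2 identifiers with the highest Pearson correlation over 18 libraries. The reference gene table (GRCr8, 47357 genes) matched 0 identifiers, so the 12 lists of 113 symbols of other myosin genes, regulators and cell type markers were not analysed here, and the tissue was not checked against other markers. Alternatives were pseudocounts, filters, scalings, weights, the libraries fitted and each animal left out.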

Additional observations from a re-analysis of the deposited data

Results flagged for a closer look

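Saline animal 56 stood apart from its group in log2(Myh7 / Myh6), at -3.16, where the other 5 saline rats lay between -2.34 and -1.87. The gap to the next rat was a larger part of the group's range than a fixed limit allows. This was 1 of 15 groups of 6 values tested. By chance about 1 group in 20 is picked, which is 0.75 of these. In percent the same animal, at 10.1%, did not meet the limit. Without it the log2 change of Myh7 after doxorubicin was 1.16 (limma adjusted p = 3.84e-06) in place of 1.31.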

How the results depend on the processing

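Log2 changes of Myh6 and Myh7 kept direction and call in all 30 alternatives per comparison: after doxorubicin -0.69 to -0.45 for Myh6 and 1.16 to 1.43 for Myh7, and after AICAR 0.08 to 0.18 (limma adjusted p 0.0806 to 0.514) and -0.27 to -0.01 (0.44 to 0.972). Not all of the 30 could move the log2 change. Leaving out an animal of the group not compared, other filters, no mean-variance trend and only the 12 libraries compared can alter the adjusted p alone. The Myh7 share difference kept both calls against saline, which leaving out 1 animal could not change because those groups do not overlap. Between the doxorubicin groups it ranged from -6.23 to -3.49 points when each animal was left out, with the calls named above. The number of genes called between the doxorubicin groups (196) was 321 with quantile normalization, 1058 with array weights, 16 with only the 12 libraries compared and 44 with DOX+saline animals 1 and 6 averaged; leaving out each animal gave 36 to 461, past 1.5 times for all but saline animal 51, DOX+saline animal 5 and DOX+AICAR animals 7 and 8. The cause was not tested. Voom on recovered reads, shares of reads, and averaging or leaving out animals 1 and 6 were chosen after seeing the data. No paired analysis was possible because the groups share no animal numbers.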
